A study of Mus musculus with 12 samples.

Results

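The early response to sorbitol was measured in 2-cell-like cells, the rare cells of an embryonic stem cell culture that switch on genes of the 2-cell embryo. The libraries were chosen by their labels: 2 libraries of tbGFP-positive cells collected after 6 h of sorbitol and 2 of tbGFP-positive cells collected at 0 h, which are 4 of the 12 libraries of the series. All cells were of E14, a line of mouse embryonic stem cells, and carried the reporter 2C::3xtbGFP, in which a turboGFP marks the 2-cell-like state. They were expanded with the inhibitors CHIR99021 and PD0325901 in serum and LIF and plated without both inhibitors. A culture of 48 h is named, with 0, 6 or 24 h of sorbitol within or after it. The cells were then sorted by tbGFP, 50000 cells per sample. Libraries of tbGFP-negative cells, 2 at each time, serve here as the comparison. The labels do not say whether the 2 libraries of a group came from separate cultures, so each p-value speaks only of the spread among these libraries, which may be technical.

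The labels do not say whether the hours of sorbitol fall within the 48 h or follow them. If they follow, no group matches the 6 h cells in time without sorbitol, and sorbitol and time without the inhibitors cannot be told apart. The sort came after the treatment, so the positive cells at 6 h need not be those that were positive at 0 h, and a change in which cells are positive cannot be told apart from a change within them. In bulk samples such as these, fewer cells of a type and less RNA per cell cannot be told apart either.

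Sorbitol is a sugar alcohol that draws water out of cells. Mammalian cells answer hyperosmotic stress first through ion channels and stress kinases of the MAP kinase family, and then through transcription of carriers and enzymes that collect compatible osmolytes such as myo-inositol, neutral amino acids and sorbitol itself, much of it driven by the factor NFAT5. The 2-cell-like state is set up by the transcription factor Dux, here the gene Duxf3, which turns on Zscan4 genes and endogenous retroviruses. Splicing, nucleolar function and p53 have also been linked to entry into this state.

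The gene with the smallest adjusted p-value among all 19384 genes tested was a small nucleolar RNA, Gm26270, one of a run of nearly identical C/D-box RNAs of the Snord116 kind inside the long noncoding host gene Snhg14. C/D-box RNAs guide the methylation of other RNAs, or have no known target. Gm26270 is shown with 2 copies that differ from it by 1 base and with another snoRNA of the same host, so that a reader can see how alike the copies are. The sequences are printed as DNA, 5′ to 3′, from GENCODE release M21 (GRCm38), with the C box (TGATGA) and the D box (CTGA) in capitals.
Gm26270: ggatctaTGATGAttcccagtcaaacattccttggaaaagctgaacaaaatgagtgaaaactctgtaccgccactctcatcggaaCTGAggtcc
Gm23767: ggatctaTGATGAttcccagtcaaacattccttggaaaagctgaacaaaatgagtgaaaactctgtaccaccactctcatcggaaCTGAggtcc
Gm24711: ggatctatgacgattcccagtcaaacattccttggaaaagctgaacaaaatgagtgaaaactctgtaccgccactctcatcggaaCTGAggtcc
Gm25870: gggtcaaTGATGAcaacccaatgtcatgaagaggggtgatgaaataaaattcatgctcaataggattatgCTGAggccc

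Gm26270 lies on the minus strand at chr7:59716059-59716152 (GRCm38), within Snhg14 at chr7:59307924-59975759. Of 12 tested snoRNA genes inside Snhg14 on the same strand, 11 were 94 bases long, and 7 of these, Gm26270 included, had the same sequence. Counted from 1 at the 5′ end and with Gm26270 as the reference, Gm23767 differed by G70A and Gm24711 by T11C, which falls in its C box. Gm25870 is another snoRNA of 79 bases. Reads from identical copies cannot be assigned to one of them, and how the authors' counting shared them is not given in the sources used here, so the values of single copies are uncertain and their sum is given below.

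The libraries held 6098314 and 4572157 counts at 0 h and 3581875 and 7832956 counts at 6 h, within the 2306870 to 7900178 of all 12. Levels are given as CPM, the usual unit of counts scaled to library size, here with edgeR's TMM factors, and are comparable between libraries rather than between genes. The 6 h positive libraries were sparse: at one depth of 2305061 counts they held 17049 and 16520 genes, against 21539 and 17651 at 0 h and 18674 to 22870 in the other 8 libraries. Their replicates also agreed less. The correlation of log2 CPM between replicates, across 7393 genes with a mean of at least 50 counts, which are not independent, was 0.84 at 6 h, 0.946 at 0 h, and 0.974 to 0.985 in the other groups. The part of depth, RNA quality and cell number in this was not tested. The sort held in all 4 libraries: the Zscan4 genes took 4.17% and 4.89% of the counts at 0 h and 3.58% and 2.7% at 6 h, against at most 0.00518% in tbGFP-negative cells at those times. The stem cell factor Pou5f1, at 1220 and 785 CPM at 0 h and 772 and 1419 CPM at 6 h, was present in the positive cells too.

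At 6 h, 1143 of 19384 tested genes, or 5.9%, differed from 0 h in the positive cells (edgeR quasi-likelihood F test, Benjamini-Hochberg adjusted p under 0.05). Of these, 415 (2.14%) were higher, with a median log2 fold change of 2.27, and 439 (2.26%) were lower but still detected, with a median of -1.63. Another 289 (1.49%) were lower and had no count in either 6 h library. They are kept apart, since 2326 tested genes, or 12%, had no count in both 6 h libraries and 740, or 3.82%, in both 0 h libraries. Over all tested genes the median log2 fold change was -0.05.

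**Figure D1:**
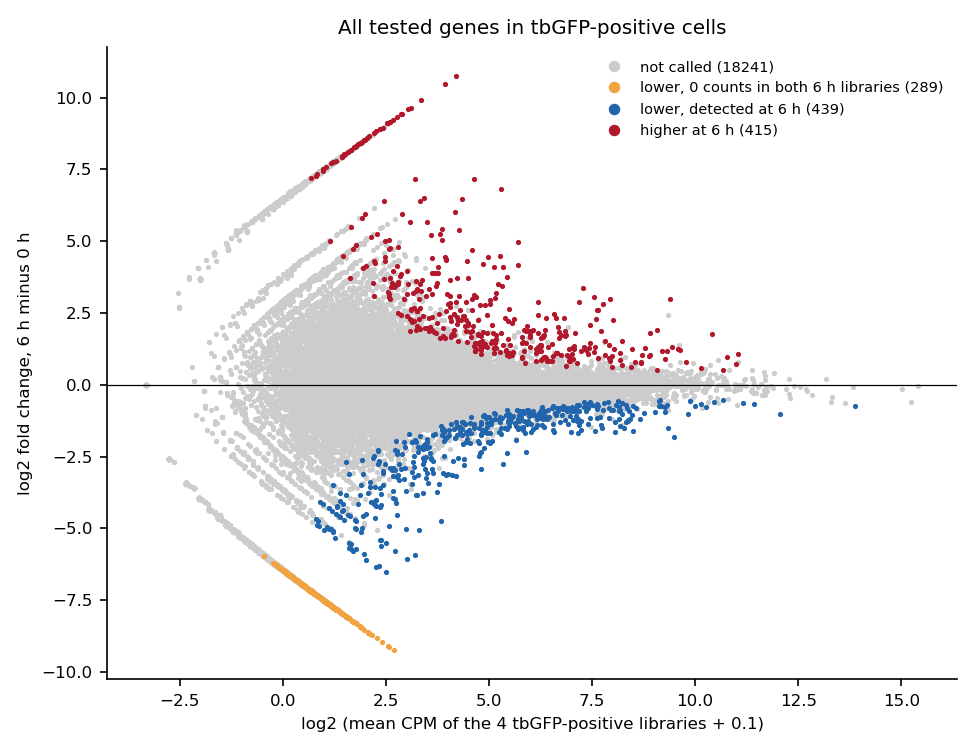
Log2 fold change at 6 h against 0 h for each tested gene in tbGFP-positive cells (y axis), by the log2 of its mean CPM over the 4 libraries with a small constant added (x axis), with 1 point per gene. The 415 higher and 439 lower detected genes spread over a wide range of levels, while the 289 lower genes without counts at 6 h lie on the lower diagonal edge at low levels and the higher genes without counts at 0 h on the upper one, where the fitted fold change only reflects the level in the other group.

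These counts rest on a spread shared by all 12 libraries, and they are sensitive to single libraries. With only the 4 positive libraries in the fit, 4 genes passed (Hist1h2aa, 1110038B12Rik, Gm26270 and Rian, each with adjusted p = 0.0347), while without 1 library the number of higher genes ran from 107 (without 0 h replicate 2) to 1298 (without 6 h replicate 2). Of the 415 higher genes, 69 kept their call whichever of the 4 libraries was left out, as did 130 of the 439 lower detected and 83 of the 289 undetected ones. Of 14 alternative fits, the 4 genes above kept their call in 14. Slc5a3, Slc38a2, Nfkbia, Rgs16, Ier5, Gas5, Neat1, Zfp57, Spesp1 and Stox1 kept it in 13. Most other genes named below kept it in fewer, and a number given beside some of them is the number of fits that kept the call. For example, Akr1b3, Eno1 and Zscan4d kept it in 10 of 14, Npm1, Tsix, Lncenc1 and Mysm1 in 9 of 14, and Timeless and Mcm6 in 8 of 13 and 8 of 12 fits that tested them.

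Carriers of osmolytes were among the genes that rose. Slc5a3, the sodium/myo-inositol cotransporter, had 51.9 and 27.4 CPM at 0 h and 322 and 342 CPM at 6 h, and still 284 and 292 CPM at 24 h. Both 6 h libraries lay far above both 0 h libraries, and the rise was 3.06 ± 0.24 (log2 fold change ± SE, adjusted p = 1.14e-05). The gene lies at chr16:92058322-92087473 and overlaps Mrps6 at chr16:92058270-92112227, a ribosomal protein gene of mitochondria that rose as well, so their reads may be shared.

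Slc38a2, the carrier SNAT2 for neutral amino acids, rose from 555 and 694 CPM to 1747 and 2474 CPM, a log2 fold change of 1.76 ± 0.17 (adjusted p = 8.81e-05). Akr1b3, the aldose reductase that makes sorbitol from glucose, rose from 26.4 and 24.0 CPM to 60.4 and 71.1 CPM, by 1.38 ± 0.24 (adjusted p = 0.00486). The opposite direction was seen for Sord, sorbitol dehydrogenase, which turns sorbitol into fructose. It had 823 and 742 CPM at 0 h and 397 and 512 CPM at 6 h, and fell by 0.78 ± 0.16 on the log2 scale (adjusted p = 0.0138).

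Of 27 tested genes of osmolyte and volume regulation, 5 were higher, which is 18.5% beside 2.14% of all genes. Of the rest, 1 was lower and detected, and 1, Impa1, was lower without counts at 6 h. Beside the 3 above, the higher genes were Wnk1, a kinase that senses chloride and cell volume, and Ddx5, an RNA helicase. The list's median log2 fold change was 0.08 beside -0.05 for all genes, and 0.59 beside 0.07 without the genes at 0 counts in both 6 h libraries. Other parts of the classical osmotic program were not called. Slc6a6, the taurine carrier, had 351 and 277 CPM at 0 h and 224 and 266 CPM at 6 h (adjusted p = 0.224). Slc6a12, the betaine carrier, had no counts at 0 h and 0 and 20 counts at 6 h. Nfat5 itself had 10 and 0 counts at 6 h, too few to judge at this depth. Leaving out 1 library gave 3 (0 h replicate 1) to 8 (either 6 h library) higher genes in this list. The calls of Wnk1 and Ddx5 were lost without 0 h replicate 1, and that of Wnk1 also without 0 h replicate 2.

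**Figure D2:**
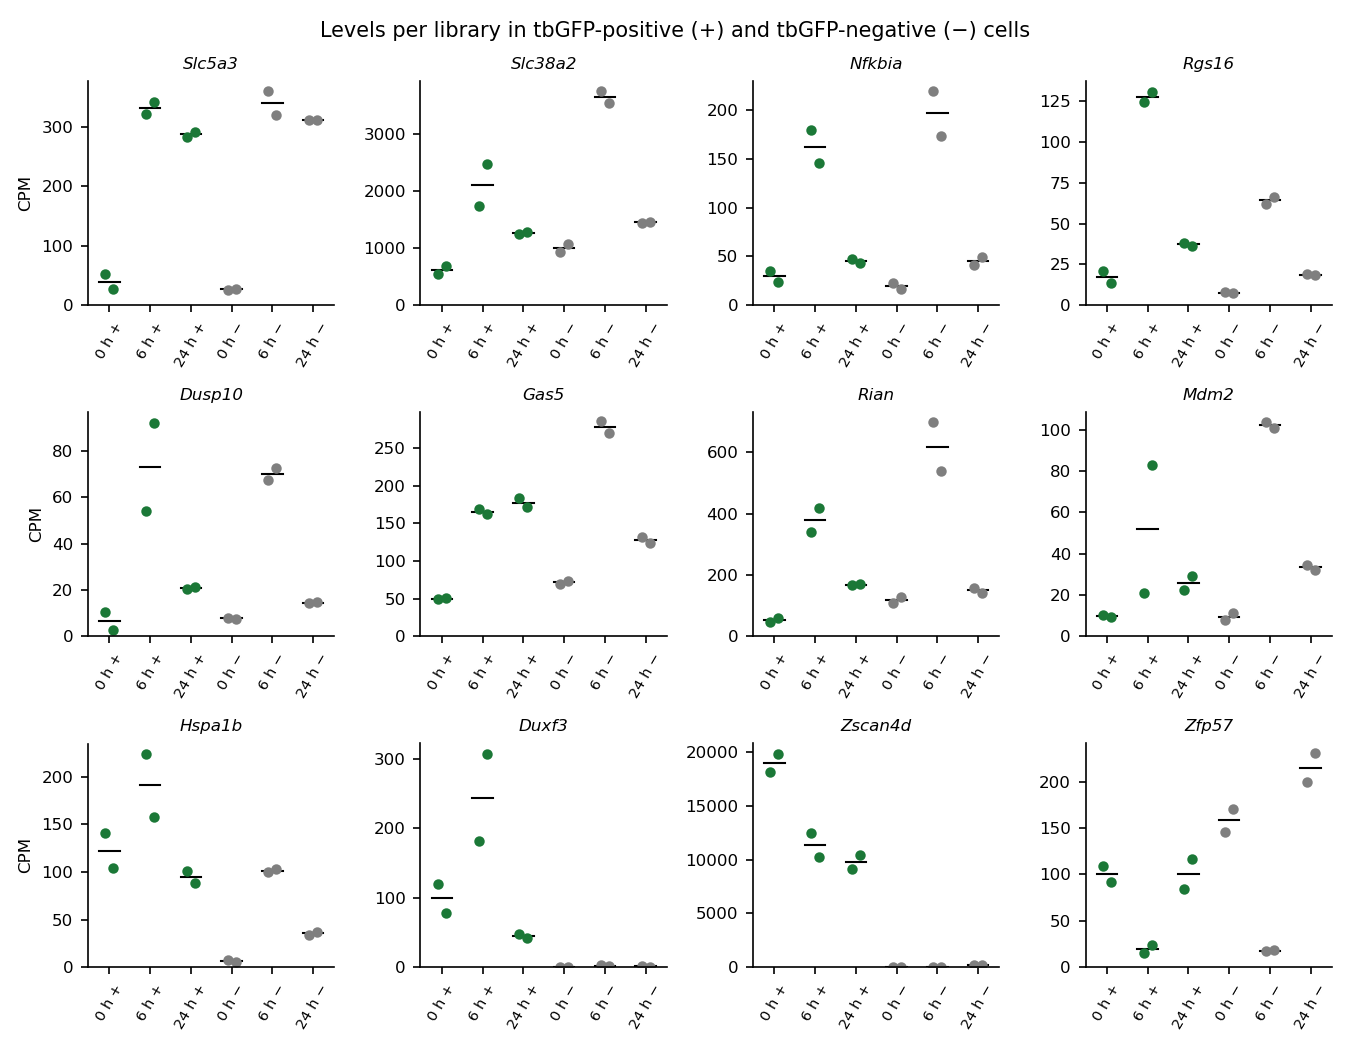
CPM per library (points) and group mean (line) for 12 genes in tbGFP-positive (+) and tbGFP-negative (−) cells at 0, 6 and 24 h, on linear axes from 0 with 2 libraries per group. Slc5a3, Slc38a2, Nfkbia, Rgs16, Dusp10, Gas5 and Rian rose in both fractions, Hspa1b passed the test in negative and not in positive cells, and Zfp57 fell in both.

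Rgs16, which shortens signals of G protein-coupled receptors, had 20.9 and 13.8 CPM at 0 h and 124 and 131 CPM at 6 h, with a log2 fold change of 2.87 ± 0.27 (adjusted p = 7.56e-05). Nfkbia, which encodes the NF-kB inhibitor IkBa, had 35.4 and 23.7 CPM at 0 h and 180 and 145 CPM at 6 h, with a rise of 2.45 ± 0.26 (adjusted p = 0.000187). In both genes the groups did not overlap, as was so for all 415 higher and all 439 lower detected genes. Without regard to the test, 15.3% of all tested genes were higher and 22.9% lower without overlap.

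Of 24 tested MAP kinase phosphatases and stress kinases, 6 were higher, none was lower and detected, and Dusp6, a phosphatase of ERK, was lower without counts at 6 h. The list's median was 0.56 beside -0.05 for all genes, and 25% of it was higher beside 2.14% of all genes. Dusp10, a phosphatase that acts on the stress kinases p38 and JNK, had 10.5 and 2.47 CPM at 0 h and 54.0 and 92.2 CPM at 6 h, a rise of 3.46 ± 0.47 (adjusted p = 0.00148). Dusp2 went from 3.06 and 0.988 CPM to 28.4 and 20.7 CPM, by 3.54 ± 0.59 (adjusted p = 0.0042). Map3k20, the ZAK kinase that senses stalled ribosomes, rose by 1.30 ± 0.22 (adjusted p = 0.00437) from 38.3 and 46.0 to 91.4 and 116 CPM. Gadd45b, Dusp4 and Gadd45g were the other 3. Gadd45b and Gadd45g encode neither a phosphatase nor a kinase, so the list is wider than its name. For Gadd45g the 6 h libraries were 121 and 19.0 CPM, above 13.2 and 14.6 CPM at 0 h but far apart, and 6 of 14 alternative fits kept its call. Leaving out 0 h replicate 2 left 3 higher genes in the list. It ended the calls of Gadd45b, Dusp4 and Gadd45g, and leaving out 0 h replicate 1 those of Dusp4 and Gadd45g.

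Of 18 tested immediate-early genes, which are transcribed within minutes of a signal, 5 were higher and none lower, with a median of 1.01. That is 27.8% higher, beside 2.14% and a median of -0.05 for all genes. Ier5 rose from 37.3 and 42.8 CPM to 136 and 190 CPM, by 2.03 ± 0.24 (adjusted p = 0.000481), and its call was kept in 13 of 14 alternative fits. Klf6 rose by 1.08 ± 0.19 (adjusted p = 0.00681), Btg1 by 0.99 ± 0.18 (adjusted p = 0.00649) and Ier3 by 1.46 ± 0.28 (adjusted p = 0.00927). Jun, a subunit of AP-1, had 76.8 and 48.2 CPM at 0 h and 153 and 118 CPM at 6 h (adjusted p = 0.0396), and its call was kept in 6 of 14. Fos, its partner, had 52.5 and 24.7 CPM at 0 h and 65.5 and 66.1 CPM at 6 h and did not pass (adjusted p = 0.187). Egr1 had 7 and 4 counts at 0 h and none at 6 h, and Atf3 had none in any of the 4, so neither was tested. Without 0 h replicate 2, 1 gene of this list passed and the calls of Btg1, Klf6, Ier3 and Jun were lost.

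Calls among targets of the tumour suppressor p53 went one way: 5 of 26 were higher (19.2%), none was lower, and the median was 0.99. Over all tested genes 2.14% were higher and the median was -0.05. Zmat3, an RNA-binding target of p53, had 6.70 and 5.44 CPM at 0 h and 31.7 and 30.5 CPM at 6 h, with close replicates and a rise of 2.35 ± 0.36 (adjusted p = 0.00281). Cdkn1a, the cell cycle inhibitor p21, had 1.72 and 0 CPM at 0 h and 10.3 and 17.0 CPM at 6 h (3.86 ± 0.86, adjusted p = 0.0195). The replicates of other targets were far apart. Plk2, a kinase induced by p53, had 161 and 141 CPM at 0 h and 436 and 1960 CPM at 6 h (2.99 ± 0.50, adjusted p = 0.0081). Mdm2, the ubiquitin ligase of p53, had 10.3 and 9.39 CPM at 0 h and 21.1 and 82.98 CPM at 6 h (2.41 ± 0.47, adjusted p = 0.0103). For both, 6 h replicate 2 was close to the negative cells at 6 h, which had 2160 and 2037 CPM of Plk2 and 104 and 101 CPM of Mdm2, and 6 h replicate 1 was well below them.

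The summed level of the p53 list was split the same way, at 3078 and 2803 CPM at 0 h and 3194 and 9430 CPM at 6 h. Without 6 h replicate 1, 13 members were higher, and without 0 h replicate 2, 2 were. The calls of Mdm2 and Btg2 were lost without either 0 h library and that of Cdkn1a without 0 h replicate 2. Btg2, an antiproliferative target, rose by 1.00 ± 0.26 (adjusted p = 0.0388) and kept its call in 7 of 14 alternative fits. Among 14 tested BCL2 family genes, which set the threshold for apoptosis, 1 passed: Mcl1, a short-lived survival factor, rose from 1476 and 1571 CPM to 2228 and 2825 CPM, by 0.73 ± 0.13 (adjusted p = 0.00782), a call lost without 0 h replicate 1.

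Heat-shock chaperones gave no call in positive cells: 0 of 20 passed in either direction with edgeR, 4 higher and 1 lower had an unadjusted p under 0.05 (24.4% of all genes did, in either direction), and DESeq2 called 2 higher. In negative cells 4 of the 20 rose. Without 6 h replicate 1, 1 member was higher and 3 were lower in positive cells, and without 6 h replicate 2, 4 were higher. Hspa1b, which encodes the inducible HSP70, had 141 and 104 CPM at 0 h and 224 and 158 CPM at 6 h, a log2 fold change of 0.64 ± 0.23 (adjusted p = 0.106). In negative cells it had 7.84 and 5.68 CPM at 0 h and 100 and 103 CPM at 6 h. The level in positive cells was thus already above that of negative cells at 0 h, and the responses differed by the interaction test (adjusted p = 0.000503). Hspa1a had 63.6 and 27.7 CPM at 0 h and 76.7 and 70.5 CPM at 6 h in positive cells (adjusted p = 0.246), against 1.49 and 1.93 CPM and then 48.3 and 56.6 CPM in negative cells (interaction adjusted p = 0.00644). The 2 genes are nearly identical copies, so their reads may be exchanged.

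Promoters were read from RefSeq (GRCm38.p6), in the 250 bases before each start, for 4 motifs on either strand: the heat-shock element GAANNTTC, the AP-1 site TGANTCA, the cAMP response element TGACGTCA and the NFAT5 core TGGAAANN. RefSeq promoters were matched by symbol for 248 of the higher genes (306 promoters) and 305 of the lower detected genes (364 promoters). Genes lower without counts at 6 h had 205 promoters, all tested genes 13178 and all of RefSeq 32851, and shares are given in this order: higher, lower detected, lower without counts, tested and all. The cAMP response element was in 4.25% (13 promoters), 1.92%, 3.41%, 2.5% and 1.55%. The heat-shock element was in 4.25%, 4.67%, 5.85%, 5.37% and 6.69%, and the AP-1 site in 2.61%, 4.4%, 4.39%, 4.74% and 6.75%. The NFAT5 core was in 13.1%, 14.8%, 19.5%, 15.2% and 18.5%. Tested genes differ from all of RefSeq in each motif, so the called groups are better read beside the tested genes. No test was made of these shares. The windows below are 100 bases each, with the motif in capitals, and are shown for a p53 target, for a snoRNA host gene that rose, and for 1 of the 2 chaperone genes whose responses differed between the fractions.
Plk2: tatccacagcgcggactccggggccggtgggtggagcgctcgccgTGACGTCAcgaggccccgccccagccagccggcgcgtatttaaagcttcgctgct
Gas5: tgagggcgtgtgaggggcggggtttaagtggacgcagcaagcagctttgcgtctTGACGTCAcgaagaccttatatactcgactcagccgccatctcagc
Hspa1b: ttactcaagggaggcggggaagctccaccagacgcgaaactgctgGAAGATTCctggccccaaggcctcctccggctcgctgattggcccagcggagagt

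The window of Plk2 is chr13:110394937-110395036 on the plus strand, that of Gas5 chr1:161035066-161035165 on the plus strand at the later of its 2 RefSeq starts, and that of Hspa1b chr17:34959288-34959387 on the minus strand. The motif begins 62, 46 and 104 bases before the start. Hspa1a has the same 100 bases at the same distance. A match is only a match of letters in this window.

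Genes of the 2-cell program itself moved in both directions. Of 50 tested, 2 were higher (4%, beside 2.14% of all genes), and the median was -0.09. A further 5 were lower and detected, as were 2.26% of all genes. In negative cells, where 3.22% of all genes rose, 13 of the same 50 did, among them genes at very low levels there. Dcc had 0 and 0 CPM at 0 h and 0.671 and 0.624 CPM at 6 h, and Duxf3 0 and 0.227 CPM and then 2.52 and 1.66 CPM. Zscan4d had 4.85 and 9.09 CPM and then 18.3 and 15.6 CPM, far below the positive cells. In positive cells Duxf3, the mouse Dux gene that starts the program, had 120 and 78.8 CPM at 0 h, 181 and 307 CPM at 6 h, and 48.3 and 42.1 CPM at 24 h. The rise at 6 h was 1.30 ± 0.31 (adjusted p = 0.0254), kept in 8 of 14 alternative fits and lost without either 0 h library or 6 h replicate 2. Duxf3 is a member of a repeated array, so its counts are uncertain. The other was Kdm4dl, annotated as a pseudogene of the Kdm4d demethylase family, which rose by 1.17 ± 0.27 (adjusted p = 0.0251).

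Zscan4d, a telomere-linked zinc finger gene and a mark of the state, went the other way. It had 18130 and 19790 CPM at 0 h and 12490 and 10240 CPM at 6 h, and fell by 0.74 ± 0.17 on the log2 scale (adjusted p = 0.0233). Its near copy Zscan4c had 11070 and 12270 CPM at 0 h and 9488 and 7754 CPM at 6 h and did not pass (adjusted p = 0.333). Rdh1, a retinol dehydrogenase, had 425 and 482 CPM at 0 h and 190 and 177 CPM at 6 h, and fell by 1.31 ± 0.25 (adjusted p = 0.00986). Mysm1, a histone H2A deubiquitinase, fell by 1.75 ± 0.35 (adjusted p = 0.0115), and Dcc, the netrin receptor, by 0.90 ± 0.21 (adjusted p = 0.0242). Tdpoz4 was the last of the 5. Without 0 h replicate 2 none of the 50 passed in either direction, and without either 6 h library 5 were higher and 11 lower. Duxf3 and Kdm4dl were among the calls lost without 6 h replicate 2.

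Other markers did not pass and lay close to their 0 h level or were split between libraries. Gm8300 had 5552 and 6716 CPM at 0 h and 5578 and 5910 CPM at 6 h. Zfp352 had 37.9 and 43.5 CPM and then 45.6 and 23.4 CPM, and Usp17lc 381 and 433 CPM and then 439 and 323 CPM. Tdpoz3 had 776 and 858 CPM at 0 h, with 526 CPM in 6 h replicate 1 and 1617 CPM in 6 h replicate 2. The 50 genes summed to 76570 and 86190 CPM at 0 h and to 66050 and 60640 CPM at 6 h. Of 39 chromatin regulators of the state, Ncl was higher and Nelfa lower. Nelfa, a subunit of the negative elongation factor NELF, had 6330 and 5034 CPM at 0 h and 2456 and 3125 CPM at 6 h (-1.03 ± 0.19, adjusted p = 0.00734). Ncl, nucleolin, had 333 and 567 CPM at 0 h and 1177 and 977 CPM at 6 h (1.26 ± 0.20, adjusted p = 0.00313).

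Gm26270, the snoRNA printed above, had 3.64 and 2.72 CPM at 0 h and 86.6 and 116 CPM at 6 h, a log2 fold change of 4.97 ± 0.33 (adjusted p = 4.44e-06), with the same call in 14 of 14 alternative fits. The 11 snoRNA genes of the sequence family printed above summed to 7.66 and 9.88 CPM at 0 h, 144 and 189 CPM at 6 h and 75.8 and 81.6 CPM at 24 h. Negative cells had 1.49 and 1.02 CPM, 203 and 261 CPM, and 61.9 and 49.0 CPM of the same sum, so both fractions rose, and positive cells started from the higher level. All 12 snoRNA genes inside Snhg14 had a positive log2 fold change. Some copies were split between the 6 h libraries, with 0 and 89 counts for Gm23862 and 26 and 1 for Snord116l13. The 12 genes are not separate observations, since 11 are nearly alike and 7 of these have the same sequence. Their host Snhg14, a long transcript of the imprinted Prader-Willi/Angelman region, went from 39.1 and 60.5 CPM to 160 and 204 CPM (1.87 ± 0.26, adjusted p = 0.00148).

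Rian, an imprinted noncoding RNA of the Dlk1-Dio3 region that also hosts C/D-box snoRNAs, had 47.3 and 59.8 CPM at 0 h and 339 and 418 CPM at 6 h (2.82 ± 0.21, adjusted p = 5.5e-06). The processed transcript 1110038B12Rik, which lies near Hspa1b on chromosome 17, had 51.9 and 58.3 CPM at 0 h and 359 and 315 CPM at 6 h (2.61 ± 0.19, adjusted p = 5.5e-06). Gas5, a snoRNA host whose spliced transcript is turned over during translation, had 48.8 and 50.4 CPM at 0 h and 169 and 162 CPM at 6 h (1.74 ± 0.17, adjusted p = 9.72e-05). These 3 genes had non-overlapping groups with little spread, and 13 or 14 of 14 alternative fits kept their calls.

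The list of snoRNA hosts did not hold Rian. Of its 13 tested genes, 3, or 23.1%, were higher (Gas5, Snhg14 and Zfas1) and none lower, with a median of 0.54. Without 6 h replicate 1 there were 5. Zfas1 had 36.0 and 29.2 CPM at 0 h and 239 and 90.4 CPM at 6 h. Of 161 tested snoRNAs 12 were higher (7.45%, beside 2.14% of all genes) and 5 lower, 2 of these without counts at 6 h. The 12 include Gm26270, Gm23767, Snord116l11 and Gm25816, nearly identical copies inside Snhg14 that may share the same reads, so the share is uncertain. Neat1, the scaffold of paraspeckles, rose from 63.8 and 70.7 CPM to 260 and 303 CPM, by 2.07 ± 0.19 (adjusted p = 7.56e-05). Rnu12, the U12 RNA of the minor spliceosome, rose from 9.58 and 4.20 CPM to 75.1 and 54.3 CPM, by 3.20 ± 0.42 (adjusted p = 0.00108). Neat1 and Rnu12 were the 2 higher members of the list of 11 abundant nuclear noncoding RNAs, whose median was -0.6. Its other called members, Tsix, Lncenc1 and Kcnq1ot1, were lower, by calls lost without 0 h replicate 2. Tsix and Kcnq1ot1 are antisense transcripts, and the strand setting of the counting is not given in the sources used here.

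**Figure D3:**
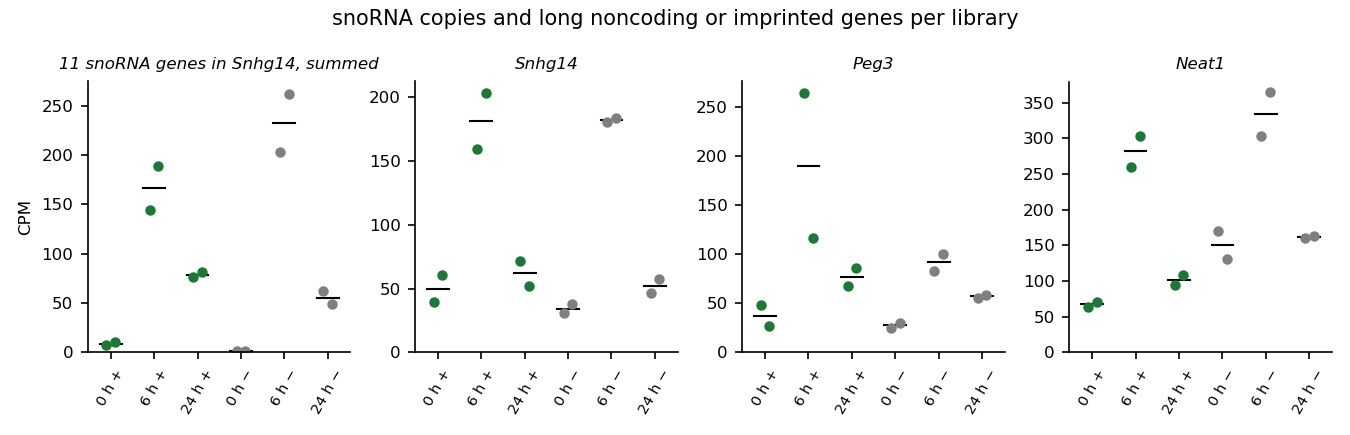
CPM per library (points) and group mean (line) of 11 nearly identical snoRNA genes inside Snhg14, summed, of their host Snhg14, of the imprinted gene Peg3 and of Neat1, in tbGFP-positive (+) and tbGFP-negative (−) cells at 0, 6 and 24 h with 2 libraries per group. The snoRNA sum is highest at 6 h in both fractions, at 144 and 189 CPM in positive and 203 and 261 CPM in negative cells.

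Genes of RNA processing and of the ribosome were mixed. Of 24 SR splicing factors and CLK kinases, 3 were higher and 1 lower: Srsf6 rose from 177 and 244 CPM to 386 and 601 CPM (1.23 ± 0.21, adjusted p = 0.00458), Tra2a and Srsf10 rose as well (all 3 calls were lost without one of the 0 h libraries), and Srrm2, a scaffold of nuclear speckles, fell from 22.98 and 19.0 CPM to 0.302 and 3.12 CPM. Of 26 genes of ribosome biogenesis, Ncl and Npm1, the nucleolar histone chaperone nucleophosmin, were higher and Rrs1 was lower. Of 43 cytosolic ribosomal proteins, 3 were higher and 3 lower, with a median of 0.16. Their many processed copies make single values uncertain: Rps19 and Rps20 rose by 1.01 and 0.95, calls lost without 0 h replicate 2 and 0 h replicate 1, while Rpl11 had 78 and 21 counts at 0 h and 0 and 2 at 6 h. The limma voom fit, which weights the sparse libraries less, called none of these 43, and without 6 h replicate 2 there were 8 higher and 10 lower. In the splicing list, 1 (without 0 h replicate 1) to 6 (without 6 h replicate 2) members were higher and up to 5 lower.

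Hist1h2aa, a germline variant of histone H2A, had 60.1 and 53.1 CPM at 0 h, 364 and 329 CPM at 6 h, and 63.2 and 52.7 CPM at 24 h. The rise at 6 h was 2.61 ± 0.25 (adjusted p = 9.05e-05) and was called in 14 of 14 alternative fits. The replication histones did not share it: of 25 tested, none was higher and Hist1h1d was lower (-0.76 ± 0.19, adjusted p = 0.0308, lost without 0 h replicate 1), with a median of -0.17.

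Among pluripotency genes, more were called lower than higher. Of 26 naive genes, 1 was higher and 3 were lower and detected. Over all tested genes, 2.14% were higher and 2.26% were lower and detected. Zfp57, the zinc finger protein that keeps methylation at imprinted loci, had 109 and 91.4 CPM at 0 h, 15.4 and 23.8 CPM at 6 h, and 84.3 and 117 CPM at 24 h. It fell by 2.33 ± 0.25 (adjusted p = 0.000239), and 13 of 14 alternative fits kept the call. Tet2, which oxidises methylated cytosine, had 35.1 and 34.1 CPM at 0 h and 7.85 and 10.6 CPM at 6 h (-1.88 ± 0.36, adjusted p = 0.00911). Nanog had 44.6 and 40.3 CPM at 0 h and 18.4 and 7.52 CPM at 6 h (adjusted p = 0.0253), a call lost without either 0 h library. Klf4 rose by 0.86 ± 0.20 (adjusted p = 0.0227) and kept its call in 8 of 14. Pou5f1 and Sox2, the core factors, did not pass (adjusted p = 0.822 and 0.851). Of 18 formative and primed genes, Zic5 and Utf1 were lower and none was higher. Zic5 had 38.5 and 34.8 CPM at 0 h and 12.7 and 13.1 CPM at 6 h (-1.51 ± 0.33, adjusted p = 0.0184), and Utf1 147 and 118 CPM and then 65.5 and 62.3 CPM (-1.05 ± 0.24, adjusted p = 0.0213, lost without 0 h replicate 1). Without 6 h replicate 1 or 2, 7 or 10 naive and 6 or 7 formative and primed genes were lower.

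**Figure D4:**
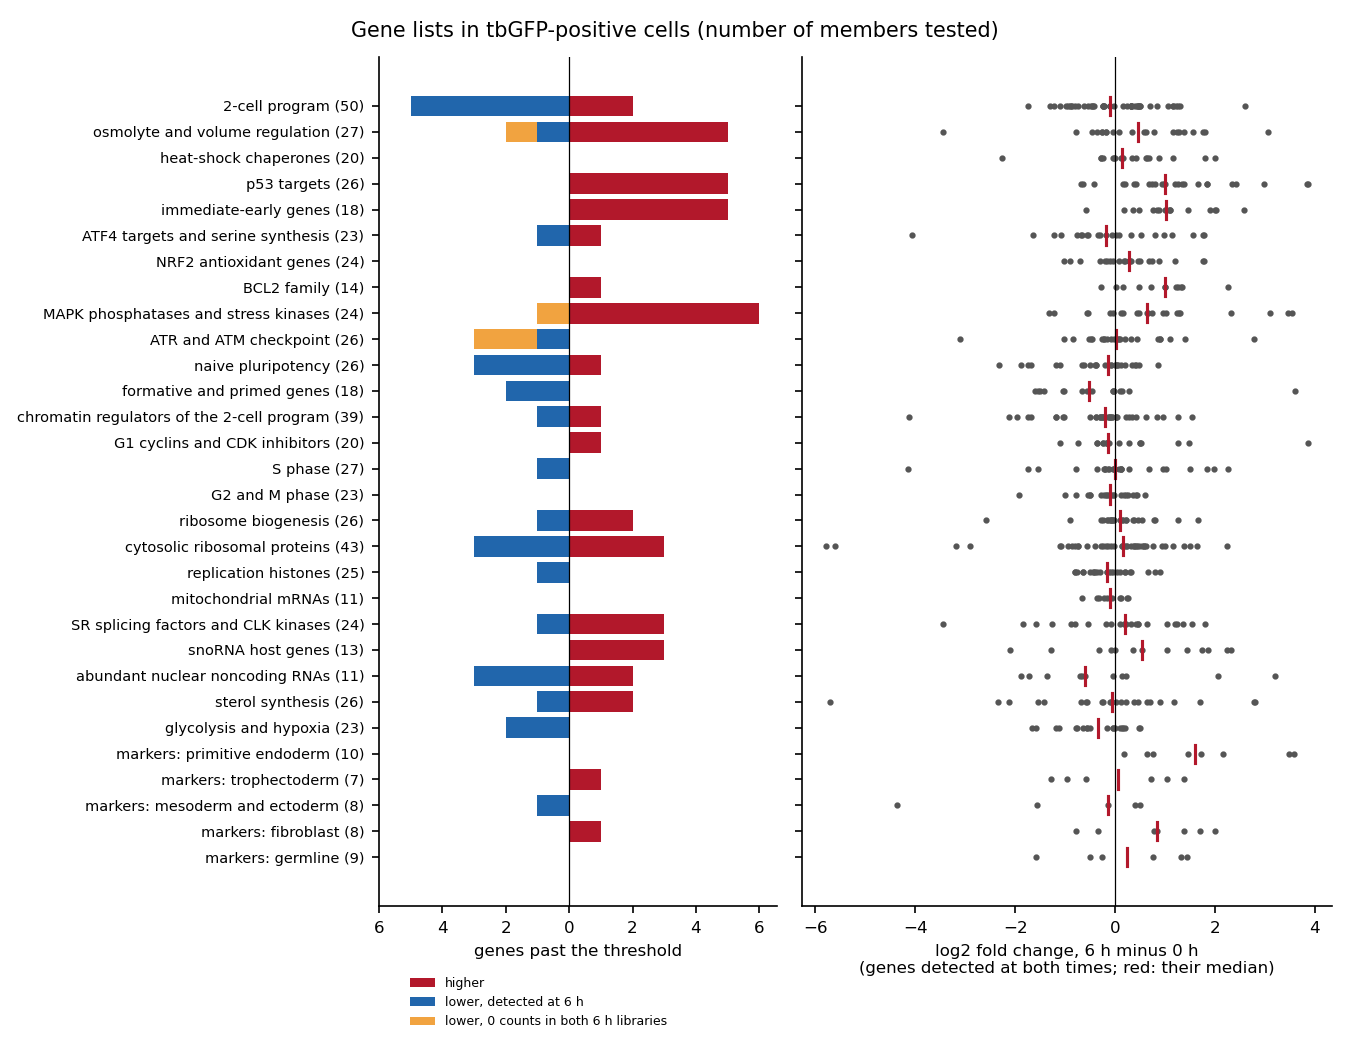
For 30 gene lists in tbGFP-positive cells, the number of members past the threshold at 6 h against 0 h (left, bars to the right for higher and to the left for lower) and the log2 fold change of each member detected at both times (right, grey points, with the median in red); the number tested is in parentheses. The MAP kinase, p53, immediate-early and osmolyte lists have 5 or 6 higher members each, and the 2-cell list has 2 higher and 5 lower. Over all tested genes, 2.14% were higher and 2.26% were lower but detected.

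The largest increases were in genes with no count in either 0 h library, 51 of the 415. Of the 10 largest, 6 (1700084M14Rik, Gm9059, 1700019M22Rik, Gm47835, Gm5200 and Olfr1460-ps1) reached 10 counts in fewer than 2 libraries outside the positive 6 h group. They entered the test only through the group where they are high, as did 24 of all 415, so that they differ is no support for a response. Against a floor of 3 counts over the 0 h group, 1700084M14Rik was at least 113-fold higher, at 54.9 and 18.01 CPM at 6 h. The pseudogene Gm9059 was at least 93.2-fold higher and the RNA sensor gene Tlr13 at least 62-fold higher, at 14.5 and 25.7 CPM. Cyp2c65, a cytochrome P450, was at least 44.5-fold higher, at 13.9 and 14.9 CPM, and Lrit1 at least 38.5-fold higher. Itgax, an integrin of myeloid cells, had 19.9 and 4.11 CPM at 6 h and was at least 37.1-fold higher. Of these, Tlr13, Cyp2c65, Lrit1 and Itgax also rose in negative cells, to 25.7 and 26.2, 22.8 and 25.6, 7.21 and 8.11, and 6.37 and 10.2 CPM. The rest of the 10 largest increases were the pseudogenes 1700019M22Rik, Gm47835, Gm5200 and Olfr1460-ps1. Their 6 h libraries were far apart except for Gm5200, with 30.5 and 1.99 CPM for Olfr1460-ps1. Their calls, and that of Itgax, were lost without either 0 h library.

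Among the decreases still detected, those with the smallest p-values were in genes well above background at 0 h. Spesp1, a sperm equatorial segment gene, had 983 and 924 CPM at 0 h and 310 and 368 CPM at 6 h (-1.49 ± 0.19, adjusted p = 0.000685). Stox1, a winged-helix gene, had 214 and 223 CPM at 0 h and 72.4 and 65.5 CPM at 6 h (-1.66 ± 0.22, adjusted p = 0.00109). Adam23, a surface protein without protease activity, had 49.4 and 49.7 CPM and then 9.36 and 4.11 CPM (-2.95 ± 0.39, adjusted p = 0.00104). The lincRNA Gm32856 fell by 1.60 ± 0.19 (adjusted p = 0.000564), and the pseudogenes Gm9176 and Gm5837 by 1.81 ± 0.18 (adjusted p = 0.000125) and 1.45 ± 0.20 (adjusted p = 0.00148). Mocs3 and 1700064H15Rik were lower as well, at 4.53 and 2.41 CPM and at 4.53 and 2.84 CPM at 6 h.

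The largest decreases by fold rested on 1 to 3 counts at 6 h, as for 55 of the 439. For these the ratio of summed counts is given with its 95% interval for counting error only. It was 122 (21.4 to 4860) for Tmem102, 101 (17.6 to 4020) for Gm38509 and 63 (21.2 to 308) for Ccdc77, in each case 0 h over 6 h. Each of these intervals spans more than 10-fold. Genes without counts in both 6 h libraries had low levels at 0 h: the 289 called ones had means of 1.26 to 12.7 CPM, with a median of 3.4, and 288 of them had counts in both positive libraries at 24 h. The 5 highest at 0 h were Mcm9 (11.1 and 14.3 CPM), Arhgef18 (13.0 and 10.6 CPM), Nbr1 (10.9 and 12.1 CPM), Cep290 (8.24 and 12.6 CPM) and Cnbp (6.32 and 12.9 CPM). Against the floor of 3 counts over the 6 h group they were at least 43.9-, 40.8-, 39.8-, 36- and 33.1-fold lower. The limma voom fit called none of the 289.

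In tbGFP-negative cells 625 genes (3.22%) were higher and 235 (1.21%) lower at 6 h against 0 h. This comparison has no library in common with that in positive cells. Of the 415 genes higher in positive cells, 190 were also higher in negative cells, which is 45.8% of the positive and 30.4% of the negative list. Of the 728 lower in positive cells (3.76% of those tested, detected or not), 84 were also lower in negative cells, 11.5% of the positive and 35.7% of the negative list. Opposite calls were few: 1 gene was higher in positive and lower in negative cells, and 10 were lower in positive and higher in negative cells.

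Whether a response differed between the fractions was tested with an interaction term. It passed for 33 genes (0.17%), all with a lower response in positive cells, and for 0 genes in the other direction. At unadjusted p under 0.05 there were 2008 (10.4%) and 578 (2.98%), and DESeq2 called 211 and 56. The median interaction over all genes was -0.25 on the log2 scale, and 0.15 with library totals as the only scaling, which left 18 genes lower and gave 6 higher. Leaving out 6 h positive replicate 2 gave 1655 lower and 512 higher, and leaving out 0 h negative replicate 1 left 10 lower.

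Of the 33, 16 had a fitted value below 0 in positive and above 0 in negative cells. Stox1 went from 0.373 and 0.795 CPM to 8.89 and 8.32 CPM in negative cells, with an interaction adjusted p of 5.12e-05. Ddit4l, an inhibitor of mTORC1, had 242 and 273 CPM at 0 h and 214 and 153 CPM at 6 h in positive cells, and 8.22 and 6.02 CPM and then 78.8 and 63.6 CPM in negative cells (interaction adjusted p = 5.12e-05). Arap2, a GTPase-activating protein, had 212 and 172 CPM and then 64.0 and 58.0 CPM in positive cells, and 10.8 and 18.6 CPM and then 39.6 and 49.5 CPM in negative cells (interaction adjusted p = 0.000617). In each of these the positive cells stayed at or above the level of the negative cells at 6 h. Rn7sk, the RNA of the 7SK complex that holds back transcription elongation, did not keep that order: it had 55920 and 37040 CPM and then 34190 and 27210 CPM in positive cells, and 29850 and 29110 CPM and then 66390 and 62840 CPM in negative cells (interaction adjusted p = 0.0119).

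**Figure D5:**
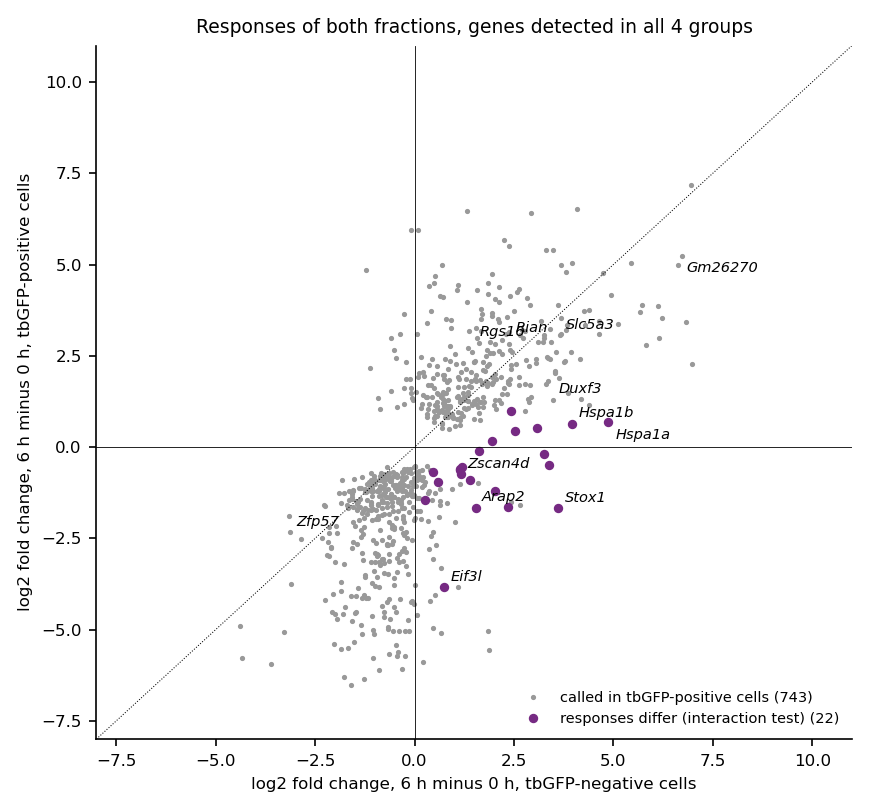
Log2 fold change at 6 h against 0 h in tbGFP-negative cells (x axis) and tbGFP-positive cells (y axis) for genes with counts in all 4 groups, with 743 genes called in positive cells in grey, 22 genes whose responses differed in purple, and equal responses on the dotted line. The purple genes lie below the line, among them Stox1, Arap2, Hspa1a, Hspa1b and Zscan4d.

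The counts of the remaining lists stand beside 2.14% higher, 2.26% lower and detected, and 1.49% lower without counts over all tested genes. Of 23 targets of ATF4, Slc38a2 was higher and Slc7a3, an arginine carrier, was lower, the latter in 4 of 14 alternative fits. Ddit3, which encodes the stress factor CHOP, had 6.32 and 9.88 CPM at 0 h and 38.6 and 9.65 CPM at 6 h (adjusted p = 0.133). Of 24 NRF2 antioxidant genes, 0 passed in either direction with edgeR, while 6 higher and 1 lower had an unadjusted p under 0.05. Hmox1, heme oxygenase, had 158 and 161 CPM and then 134 and 201 CPM (adjusted p = 0.853). DESeq2 called 0 of these 24, and the fits without 1 library called 0 to 3 higher and, without 6 h replicate 2, 4 lower. Of 26 genes of the ATR and ATM checkpoint, Etaa1, an activator of ATR, fell from 230 and 274 CPM to 118 and 161 CPM (-0.85 ± 0.18, adjusted p = 0.018), and Hus1 and Timeless had no counts at 6 h. Eno1 and Gpi1 of 23 glycolytic genes were lower. Insig1 and Fasn of 26 sterol genes (7.69%) were higher and Fdps was lower. The calls of Etaa1, Insig1 and Fasn were lost without 0 h replicate 2 and those of Gpi1 and Fdps without 0 h replicate 1. Of 20 G1 genes Cdkn1a was higher, and of 27 S phase genes Mcm6, a helicase subunit, was lower. Of 23 G2 and M phase genes 0 passed with edgeR, with 0 higher and 6 lower at an unadjusted p under 0.05, 3 lower with DESeq2 and 1 lower with limma voom. The 11 mitochondrial mRNAs had 0 in either direction at both thresholds.

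Markers of other cell types were low. The 10 tested genes of primitive endoderm summed to 198 and 217 CPM at 0 h and 271 and 325 CPM at 6 h, with a median of 1.11 and no call. The 7 of trophectoderm summed to 163 and 90.7 CPM and then 218 and 230 CPM, with Krt18 higher (lost without 0 h replicate 2), and the 8 of fibroblasts to 86.8 and 68.0 CPM and then 97.8 and 68.0 CPM, with Vim higher, a call kept in 5 of 14. The 8 of mesoderm and ectoderm summed to 149.8 and 107 CPM and then 87.5 and 133 CPM, with Sox1 lower (lost without either 0 h library), and the 9 of germline to 37.7 and 63.3 CPM and then 39.5 and 55.8 CPM, with no call. The part of such cells in the results was not tested.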

How the data were processed

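RNA was measured in 12 libraries. Groups were taken from the labels. Per the labels' protocols, libraries came from total RNA and a stranded kit, and FastQC, HISAT2, featureCounts, DESeq2 and the build mm10 are named in the submitters' processing notes, without versions. The authors deposited raw counts per Ensembl transcript; strand setting and treatment of shared reads are not given in the sources used here. Counts of 142446 transcripts were summed per gene with GENCODE M21 by identifier without version; 141536 matched, and the other 910, which held 0.0606% to 0.0903% of each library, were not used. Of 55266 genes, 19384 reached 10 or more counts in 2 or more libraries and entered the tests.

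edgeR 4.0.16 was run in R 4.3.3 with TMM factors and robust quasi-likelihood F tests on all 12 libraries with 6 group means; the common dispersion was 0.208, a coefficient of variation of 45.6%. P-values were adjusted by the Benjamini-Hochberg method at 0.05, and the SE is the log2 fold change over the square root of F. A floor of 3 counts equals 0.31 to 1.12 CPM per library. Alternatives were upper-quartile factors, library totals, DESeq2, limma voom, other filters, fewer libraries, a replicate block and each library left out. The scripts were tested on simulated data. Same-numbered libraries deviated from their group means with correlations of -0.133 to 0.254, which cannot decide whether the numbers pair samples. The labels do not say, and the main fit did not pair them. Figures used matplotlib.

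The comparison, the 30 gene lists and the panel were chosen with earlier results of these data known. Genes were named by a rule: the panel; among called genes with non-overlapping groups, at least 10 counts in each library of the higher group and counts at 6 h, the 10 largest changes and 10 smallest p-values in each direction; the 5 undetected genes highest at 0 h; and up to 4 called and 2 other members per list. The genes of the interaction and others named outside this rule were chosen after their values were seen.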

Additional observations from a re-analysis of the deposited data

Results flagged for a closer look

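The difference between the 6 h responses of tbGFP-positive and tbGFP-negative cells passed the interaction test for 33 genes, each with the lower response in positive cells. Values are log2 differences of the responses, positive minus negative. Among genes with a value below 0 in positive and above 0 in negative cells, these were -5.28 for Stox1, -3.99 for Fam124a, -3.87 for Ddit4l, -3.21 for Epm2a, a phosphatase of glycogen metabolism, and -3.19 for Arap2. They were -1.91 for Zscan4d and -1.72 for Gm8300, both genes of the 2-cell program, -1.73 for Rn7sk, -1.74 for Pank3, a pantothenate kinase, and -1.55 for Scamp1. For the heat-shock genes Hspa1a and Hspa1b they were -4.17 and -3.33, for the antiproliferative gene Btg1 -1.43, for the cullin regulator Cand1 -1.14, for the translation factor subunit Eif3l -4.58 and for the snoRNA Snora17 -1.77. The Gm genes, mostly pseudogenes whose reads may belong to copies, had -3.45 (Gm6494), -2.55 (Gm8038), -2.28 (Gm26315), -2.08 (Gm7957), -1.77 (Gm12183) and -1.72 (Gm5837). Some of these differences rest on low levels. In the negative libraries at 0 h, 3 counts are 1.12 and 0.341 CPM. There Stox1 had 0.373 and 0.795 CPM, Fam124a 0 and 0.68 CPM, and Gm8038 0.373 and 0.795 CPM. Gm7957 had 0.747 and 0.568 CPM, and Gm6494 0.747 and 1.48 CPM. Fam124a reached 2.85 and 2.5 CPM in negative cells at 6 h. In negative cells Zscan4d had 4.85 and 9.09 CPM at 0 h and 18.3 and 15.6 CPM at 6 h. Gm8300 had 2.61 and 4.20 CPM and then 12.4 and 10.4 CPM there, and a log2 fold change of -0.09 in positive cells. Eif3l had 1 and 13 counts at 6 h in positive cells.

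For 11 of the 33 one group had no counts, so only the adjusted p of the difference is given (edgeR's quasi-likelihood test). Negative cells at 0 h had none of AU019990 (adjusted p = 0.000503), Rdh1 and Slc34a2 (0.0161 each), 9530059O14Rik (0.0226) and Gm5543 (0.0385). Positive cells at 6 h had none of Nbr1 (0.0178), Mcm9 (0.0244), Cep290 (0.0245), Igsf21 (0.0336), Cnbp (0.0354) and Gm44669 (0.0433).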

How the results depend on the processing

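Counts are given as higher, lower detected and lower without counts at 6 h, beside 415, 439 and 289. DESeq2 gave 893, 856 and 623, and limma voom with sample weights, which were 0.21 and 0.4 for the 6 h libraries, gave 193, 92 and 0. The 4 libraries alone gave 4, 0 and 0, the 6 positive libraries 23, 8 and 0, and the 8 libraries at 0 and 6 h 99, 70 and 19. No filter on low counts gave 953 lower detected genes, and a mean of at least 50 counts gave 6 without counts at 6 h. Leaving out 1 library gave 107 to 1298, 223 to 2373 and 153 to 495, with the lone library of a group taken to vary like the other groups. Whether samples of the same number are paired is not known. A replicate block, which treats them as paired, gave 283, 326 and 162, and interactions of 31 lower and 1 higher. Interaction counts, lower and higher beside 33 and 0, were 18 and 6 with library totals, 211 and 56 with DESeq2, 47 and 4 with limma voom, 253 and 23 without a filter, 23 and 2 at a mean of at least 50 counts, 9 and 0 with the 8 libraries, and 10 to 1655 and 0 to 512 without 1 library.

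Fits of single genes covered the panel, the called genes of the naming rule and the genes of the interaction, the last also for their difference between fractions. Other genes named in the text were not covered. Among these fits, 1779 gave the same call, 599 lost it, 22 gained one and 15 turned the direction. The 15 were in 9 genes that were not called with all libraries. Of these, Tdpoz3 passed the threshold in both directions, with -0.72 (adjusted p = 0.0198) without 6 h replicate 2 and 0.89 without 6 h replicate 1. Without the filter, Hmox1 had -0.07 and Pou5f1 -0.02, and limma voom gave 0.01 for Sox2. Without 1 library the values ran from -0.33 to 0.24 for Hmox1, -6.65 to 0.57 for Nfat5, -0.46 to 0.4 for Pou5f1, -5.45 to 2.39 for Sgk1, -0.06 to 0.21 for Snora17, -0.35 to 0.01 for Sox2, -0.43 to 0.03 for Usp17lc and -0.89 to 0.08 for Zfp352. The cause was not tested. Leaving out 6 h replicate 1 or 2 moved the median of all genes from -0.05 to -0.29 or -0.37, and limma voom to -0.24. Of list counts, 573 stayed within 1.5 times and 267 did not. Depth limits genes of a few counts, since 3 counts are 0.31 to 1.12 CPM.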

Other observations

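Further genes kept their call in positive cells whichever library was left out, and were chosen after their values were seen. Foxj1, the regulator of motile cilia, had 6.89 and 3.95 CPM at 0 h and 41.7 and 155 CPM at 6 h, a log2 fold change of 4.16. Adm, which encodes the peptide adrenomedullin, had 4.596 and 2.97 CPM and then 93.3 and 37.9 CPM (4.09), and Abhd5, an activator of lipid droplet breakdown, 6.70 and 4.94 CPM and then 98.98 and 61.0 CPM (3.76). Tent5c, a poly(A) polymerase, had 38.3 and 16.1 CPM and then 173 and 391 CPM (3.37), and Timp3, an inhibitor of metalloproteinases, 32.8 and 22.5 CPM and then 122 and 155 CPM (2.32). The imprinted genes Peg3 and Mest had 48.1 and 26.4 CPM and 2.68 and 0.741 CPM at 0 h, and 264 and 116 CPM and 70.3 and 22.3 CPM at 6 h. Mest had a log2 fold change of 0.51 in negative cells (adjusted p = 0.775), and the difference from positive cells did not pass the interaction test. The testis histones Hist1h2ba and Hist1h1t rose by 1.89 and 1.63.

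Of 319 tested genes whose names start with Zfp, most of them zinc finger genes, 5 were higher, 33 were lower and detected and 1 was lower without counts at 6 h, with a median log2 fold change of -0.6. Over all genes, 2.14% were higher, 2.26% were lower and detected, and the median was -0.05. Zfp51 fell by 1.62 and Zfp936 by 1.12, beside Zfp57 described above.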
